A study of Homo sapiens with 20 samples.

Results

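The genes described here are 36 genes of cholesterol and fatty acid synthesis and of the sensing, movement and export of sterols, taken by their symbols from the 58288 genes counted in each library. All 36 were found and all 36 passed the filter on low counts that left 16478 genes to test. They fall by role into 8 genes from acetyl-CoA to squalene (ACAT2, HMGCS1, MVK, PMVK, MVD, IDI1, FDPS, FDFT1), 11 from squalene to cholesterol (SQLE, LSS, CYP51A1, TM7SF2, LBR, MSMO1, NSDHL, HSD17B7, EBP, SC5D, DHCR7), 5 of sterol sensing (SREBF1, SREBF2, SCAP, INSIG1, INSIG2), 2 of sterol transport (STARD4, NPC1), 7 of fatty acid synthesis (ACLY, ACACA, FASN, SCD, FADS1, FADS2, ELOVL6) and 3 targets of the liver X receptors (MYLIP, ABCA1, ABCG1). The genes ABCA1 and ABCG1 passed the filter through the DOHH2 libraries alone, so a difference between the lines was built into their selection for testing.

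The libraries are polyadenylated RNA of 2 human lymphoma cell lines, DOHH2 and U2932, both labelled as diffuse large B-cell lymphoma, kept for 8 h or 18 h in an agent that the labels call TK, or in DMSO as the control. The labels give neither the identity nor the dose of TK. DOHH2 is represented by 3 libraries in DMSO for 8 h, 3 in TK for 8 h, 2 in DMSO for 18 h (replicates 1 and 3) and 3 in TK for 18 h. U2932 is represented by 3 in DMSO for 8 h, 2 in TK for 8 h, a single one in DMSO for 18 h (replicate 2) and 3 in TK for 18 h, which makes 20. Every group was in DMSO or TK, and the cells are of these established lines alone. The labels do not say whether replicates are separate cultures, so the p-values measure only the spread between these libraries.

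Animal cells make cholesterol from acetyl-CoA through mevalonate and squalene, and make fatty acids from the same precursor. Both routes are switched on by the SREBP transcription factors, which SCAP carries from the endoplasmic reticulum to the Golgi for cleavage when sterols are scarce and which the INSIG proteins hold back when sterols are plentiful. Oxidised sterols activate the liver X receptors, whose targets export cholesterol and limit its uptake. Dividing B-cell lymphoma cells build membranes with the products of these routes.

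The promoters of 6 of the genes the results turn on are shown first, because SREBPs are known to act at promoters together with the general factors NF-Y, which binds CCAAT boxes, and Sp1, which binds GC boxes. MVD (chr16:88663092-88663291, minus strand) and MSMO1 (chr4:165327469-165327668, plus strand) stand for the synthesis enzymes, INSIG1 (chr7:155297678-155297877, plus strand) and SREBF2 (chr22:41832905-41833104, plus strand) for sensing, FADS1 (chr11:61817004-61817203, minus strand) for fatty acid synthesis and ABCA1 (chr9:104928156-104928355, minus strand) for export. Each sequence holds the 200 bases before the gene's start, 5′ to 3′, from RefSeq on GRCh38.p14. Capitals mark CCAAT or its complement ATTGG, present in 4 of the 6 and absent from FADS1 and ABCA1, the sterol regulatory element TCACCCCAC in SREBF2 and the E-box form TCACGTGA in INSIG1.
MVD: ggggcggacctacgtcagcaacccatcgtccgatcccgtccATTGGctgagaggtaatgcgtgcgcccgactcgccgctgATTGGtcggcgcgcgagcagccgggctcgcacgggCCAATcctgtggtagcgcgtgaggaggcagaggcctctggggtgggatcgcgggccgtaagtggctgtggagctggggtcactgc
MSMO1: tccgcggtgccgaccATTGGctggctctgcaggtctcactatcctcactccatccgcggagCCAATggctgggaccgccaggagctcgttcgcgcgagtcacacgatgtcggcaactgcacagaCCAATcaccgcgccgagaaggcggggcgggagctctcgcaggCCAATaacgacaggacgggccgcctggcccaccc
INSIG1: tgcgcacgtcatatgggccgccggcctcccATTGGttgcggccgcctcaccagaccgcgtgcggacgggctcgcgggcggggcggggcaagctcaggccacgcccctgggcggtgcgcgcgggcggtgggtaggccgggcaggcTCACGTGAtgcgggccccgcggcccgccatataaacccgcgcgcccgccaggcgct
SREBF2: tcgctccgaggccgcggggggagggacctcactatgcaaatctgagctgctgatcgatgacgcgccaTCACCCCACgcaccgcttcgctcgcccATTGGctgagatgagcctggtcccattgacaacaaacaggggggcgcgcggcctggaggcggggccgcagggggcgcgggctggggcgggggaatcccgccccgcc
FADS1: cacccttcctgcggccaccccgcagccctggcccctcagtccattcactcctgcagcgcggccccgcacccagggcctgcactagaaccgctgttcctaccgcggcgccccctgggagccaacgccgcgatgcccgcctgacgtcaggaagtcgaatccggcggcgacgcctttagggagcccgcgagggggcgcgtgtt
ABCA1: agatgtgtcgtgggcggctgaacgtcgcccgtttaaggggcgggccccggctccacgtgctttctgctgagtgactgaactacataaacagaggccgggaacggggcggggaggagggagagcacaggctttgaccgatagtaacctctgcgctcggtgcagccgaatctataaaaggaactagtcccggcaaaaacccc

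Of the 36 genes, 31 had a RefSeq promoter window of 300 bases (250 before to 50 after the start), 41 windows in all, and ACAT2, FDFT1, SQLE, FASN and ABCG1 had none. Motifs were searched on both strands. CCAAT stood in 25 of the 41 windows (61%) and in 34.6% of the 35116 windows of all genes. The GC box GGGCGG stood in 36 of the 41 windows (87.8%) and in 45% of all windows. By gene, CCAAT was present for 5 of 6 genes from acetyl-CoA to squalene, 8 of 10 from squalene to cholesterol and 2 of 5 of sensing. It was also present for 1 of 2 of transport, 4 of 6 of fatty acid synthesis and 1 of 2 liver X receptor targets. At least 2 CCAAT boxes stood in 17 of the 41 windows (41.5%), against 10.8% of all windows. Some genes had several windows, in part overlapping, so the same box can count more than once. By gene, 15 of 31 had such a window, and no share by gene was computed over all genes. MSMO1 had 4 and MVD 3 in the stretches printed above, and ABCA1 and FADS1 had none there. The element TCACNCCAC was found in 1 window, that of SREBF2, 133 bases before its start (1.13% of all windows), and TCACGTGA in 1, that of INSIG1, 56 bases before its start (0.98% of all). The liver X receptor element, 2 copies of AGGTCA with 4 bases of any kind between them, was in 0 of the 41 windows and in 0.0199% of all. These are matches of letters, not measured binding sites.

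The libraries held 30363255 to 52275430 counts in genes. DOHH2 TK 18 h replicate 1 had 56.6% of its counts without a unique alignment (20.7 to 34.3% in the other 19 libraries), and DOHH2 TK 8 h replicate 1 had 3.29% of its gene counts in mitochondrial genes (5.06 to 8.08% in the others). The B-cell genes CD79A, CD79B, MS4A1 and PAX5 averaged 468, 149, 93.4 and 173 CPM in the DOHH2 DMSO 8 h libraries and 409.5, 496, 1279 and 332 CPM in those of U2932, and none of 3 T-cell markers reached 1 CPM in either line. Of 3 markers each, 1 myeloid and 1 epithelial marker reached 1 CPM in U2932 (sums of 0.828 to 1.84 and 21.2 to 32.5 CPM) and 1 fibroblast marker in DOHH2 (5.06 to 30.8 CPM), and the part of these in the line differences was not tested. Genes used to class such lymphomas went against the classes usually given to these lines, in which DOHH2 is of germinal centre type. The germinal centre genes BCL6 and MYBL1 averaged 0.106 and 0.658 CPM in the DOHH2 DMSO 8 h libraries and 400.4 and 66.6 CPM in those of U2932, and IRF4, a gene of activated B cells, averaged 871 and 402 CPM. The line names below are therefore those of the labels, and the identity of the lines was not tested.

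Levels are CPM, counts scaled to library size with TMM factors, and are compared between genes only per length, as RPKM. In DMSO at 8 h, SCD, the enzyme that makes monounsaturated fatty acids, had the highest level in both lines, 101 ± 12.2 RPKM in DOHH2 and 85.7 ± 5.08 RPKM in U2932 (SD, n = 3 each). FASN, the fatty acid synthase, was next in DOHH2 at 87.8 ± 21.6 RPKM, within the spread of SCD, and FDFT1, which joins farnesyl units into squalene, was next in U2932 at 79.4 ± 8.36 RPKM, also within that spread. ACLY, which makes cytosolic acetyl-CoA, was the third in both, at 65.8 ± 3.36 and 70.4 ± 2.33 RPKM. The lowest in DOHH2 were ABCA1 at 0.130 ± 0.055 RPKM, ABCG1 at 0.84 ± 0.29 RPKM and SC5D, the desaturase of a late step, at 1.90 ± 0.41 RPKM. In U2932 SC5D stood at 35.0 ± 3.6 RPKM, and the lowest were ABCG1 (0.00305 ± 0.00264), ABCA1 (0.00918 ± 0.00773) and CYP51A1 (1.87 ± 0.126 RPKM). CYP51A1 shares 83.2% of its exon length with other annotated genes, so its level and rank are uncertain.

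In DMSO at 8 h, genes of the sterol chain were mostly lower in DOHH2. By edgeR's quasi-likelihood test with adjustment over all 16478 genes, 27 of the 36 genes differed between DOHH2 and U2932, 10 higher and 17 lower in DOHH2, where 67.8% of all genes differed (33% higher and 34.9% lower). The median difference of the 36 was -0.29 on the log2 scale, and that of all genes -0.03. With TK at 18 h, 28 differed, 15 higher and 13 lower, where 69.2% of all genes did (34.2% higher and 34.9% lower), and the median was 0.10, with 0.00 for all genes. Without DOHH2 TK 18 h replicate 1 that median was -0.03. The groups did not overlap for 10 genes higher and 19 lower in DMSO, where 35.9% and 37.9% of all genes did not, and for 15 higher and 14 lower with TK, where 35.1% and 37.2% did not. The counts of 27 and 28 of 36 are near the high shares of all genes, so the number called is not particular to these genes. The comparisons share no library. They had 22 called genes in common, of which 20 had the same direction (74.1% of the first list and 71.4% of the second). The overlap over all genes was not computed, so this one is not shown to be particular to the 36.

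**Figure D1:**
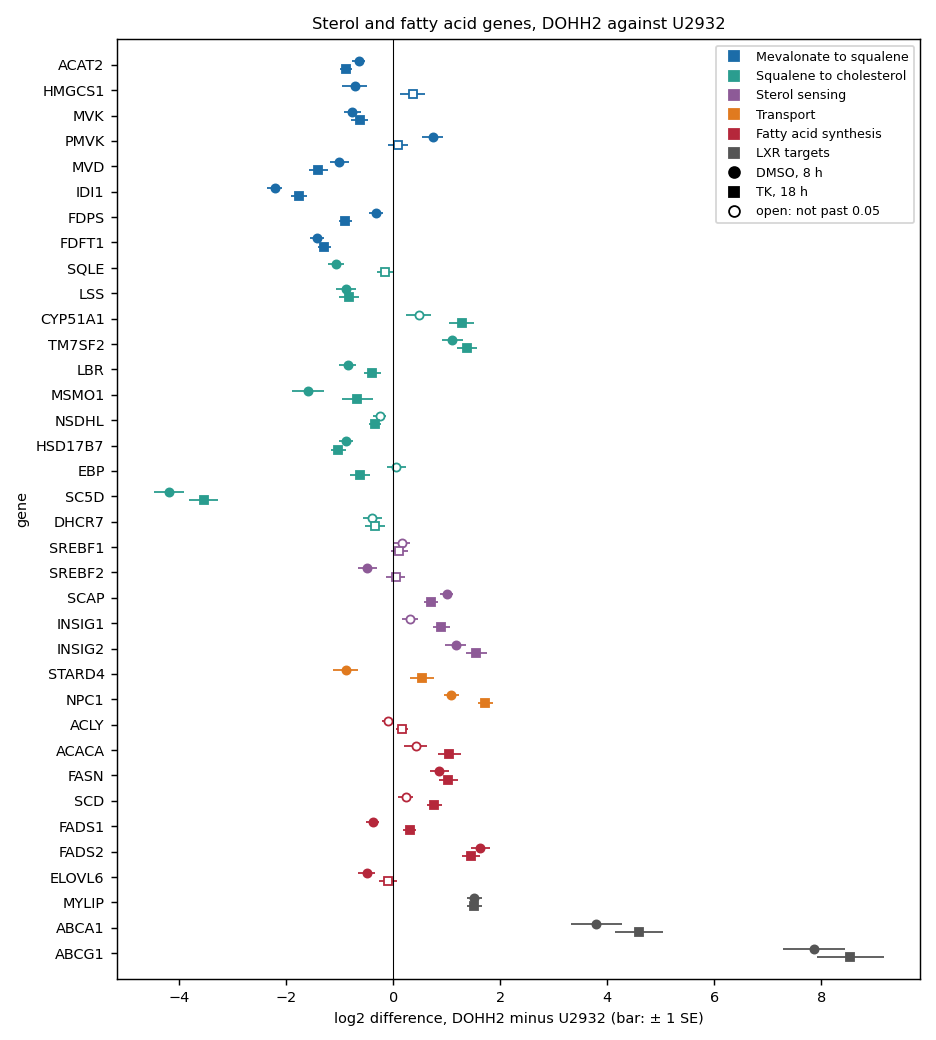
Each of the 36 genes (rows, coloured by role) with its log2 difference of DOHH2 minus U2932 on the horizontal axis, in DMSO at 8 h (circles) and with TK at 18 h (squares), bars ± 1 SE, 3 against 3 libraries. Filled symbols passed an adjusted p of 0.05. Most genes of the sterol chain lie left of 0, SC5D farthest at -4.19 and -3.54, and the 3 liver X receptor targets lie on the right.

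From acetyl-CoA to squalene, 7 of 8 genes were lower and 1 higher in DOHH2 in DMSO at 8 h, and 6 were lower and none higher with TK at 18 h. IDI1, which isomerises isopentenyl diphosphate, had 52.7, 62.5 and 69.8 CPM in the DOHH2 DMSO 8 h libraries and 280.1, 292 and 289 CPM in those of U2932. All DOHH2 values were far below all U2932 values, a log2 difference of -2.22 (SE 0.14, adjusted p = 2.3e-11), and with TK at 18 h it was -1.76 (SE 0.14, adjusted p = 7.08e-10). FDFT1 had 125, 165 and 173 CPM against 363, 438 and 439 CPM, 2.68-fold lower in DOHH2 (log2 difference -1.42, SE 0.13, adjusted p = 3.42e-09), and with TK at 18 h the difference was -1.28 (SE 0.13, adjusted p = 1.6e-08). MVD, the decarboxylase that makes isopentenyl diphosphate, had 53.2, 73.8 and 81.9 CPM against 115, 139 and 166 CPM, a log2 difference of -1.01 (SE 0.18), and -1.40 (SE 0.18) with TK at 18 h. The exception was PMVK, phosphomevalonate kinase, with 58.3, 55.1 and 59.1 CPM in DOHH2 against 33.6, 33.7 and 36.5 CPM, 1.66-fold higher in DOHH2 (adjusted p = 0.00252). With TK at 18 h PMVK ran from 53.0 to 75.1 CPM in DOHH2 and from 52.6 to 62.5 CPM in U2932, and the groups overlapped. HMGCS1, the synthase that starts the mevalonate route, was lower in DOHH2 in DMSO (50.7, 90.3 and 90.2 against 116, 136 and 127 CPM, log2 difference -0.71, SE 0.23, adjusted p = 0.0103). Without DOHH2 DMSO 8 h replicate 1, its low library, the HMGCS1 difference was -0.49 (adjusted p = 0.0713). FDPS, which makes farnesyl diphosphate, differed by -0.32 (SE 0.12, adjusted p = 0.0258) in DMSO, and by -0.89 (SE 0.12) with TK. The DMSO call was lost without the low-count filter (adjusted p = 0.0655) and without DOHH2 replicate 2 or 3 or U2932 replicate 3 (adjusted p = 0.086, 0.079 and 0.0684). ACAT2, an acetyl-CoA acetyltransferase, and MVK, mevalonate kinase, were lower in DOHH2 in both comparisons, by 0.63 to 0.88 on the log2 scale.

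From squalene to cholesterol, 6 of 11 genes were lower and 1 higher in DOHH2 in DMSO at 8 h, and 7 were lower and 2 higher with TK at 18 h. SC5D differed most. It had 7.94, 12.1 and 11.7 CPM in DOHH2 DMSO and 198, 213 and 173 CPM in U2932 DMSO, 18.3-fold lower in DOHH2 (log2 difference -4.19, SE 0.28, adjusted p = 3.16e-11), and with TK at 18 h it had 7.71, 15.3 and 12.6 against 157, 125 and 133 CPM (log2 difference -3.54, SE 0.27, adjusted p = 3.01e-10). No DOHH2 library held SC5D above 16.1 CPM, and no U2932 library held it below 92.04 CPM. MSMO1, a methylsterol oxidase, had 24.3, 36.4 and 42.6 CPM in DOHH2 and 99.4, 103 and 109 CPM in U2932 in DMSO (log2 difference -1.59, SE 0.30, adjusted p = 8.12e-05). With TK at 18 h the MSMO1 difference was -0.67 (SE 0.29, adjusted p = 0.0465) and -0.33 (adjusted p = 0.226) without DOHH2 TK 18 h replicate 1, whose 19.2 CPM lay below the 50.7 and 53.2 CPM of the other libraries. That call was also lost without any 1 of the U2932 TK 18 h libraries (adjusted p of 0.0592 to 0.114). SQLE, the first oxygen-requiring enzyme of the chain, had 89.2, 116 and 121 CPM against 197, 238 and 246 CPM in DMSO (log2 difference -1.06, SE 0.15). The SQLE groups with TK at 18 h lay side by side, at 117 to 124 and 132 to 138 CPM, and the difference of -0.16 (SE 0.15) did not pass. TM7SF2, a sterol reductase of the endoplasmic reticulum, was 2.15-fold higher in DOHH2 in DMSO (45.5, 37.5 and 37.3 against 16.4, 18.0 and 21.5 CPM), while LBR, the receptor of the nuclear envelope that carries the same reductase activity, was 1.80-fold lower. The LBR difference with TK at 18 h was -0.39, and without DOHH2 or U2932 TK 18 h replicate 1 it did not pass (adjusted p = 0.139 and 0.125). LSS, the cyclase that forms lanosterol, was lower in DOHH2 in both comparisons (67.5, 99.98 and 75.5 against 133, 160.5 and 154 CPM in DMSO), as was HSD17B7 (13.0, 15.3 and 17.8 against 27.7, 27.4 and 29.8 CPM). NSDHL, a sterol dehydrogenase, and EBP passed with TK only, at -0.35 (SE 0.12) and -0.63 (SE 0.18), the NSDHL call being lost without DOHH2 TK 18 h replicate 2 (-0.27, adjusted p = 0.0744). DHCR7, a reductase that ends the route, passed in neither, with 65.1 to 109 CPM in DOHH2 and 113 to 129 CPM in U2932 in DMSO. CYP51A1 passed in the TK comparison (log2 difference 1.28, SE 0.24), but 83.2% of its exon length is shared with other annotated genes, 1 of them antisense, and it has 3 annotated pseudogenes, so its counts are uncertain. The same holds, to a lesser extent, for ACAT2 (52.3%, antisense to TCP1 and SOD2), FDPS (18.6%, with 8 pseudogenes), HMGCS1 (15%) and IDI1 (14.8%), since the strand setting of the counting is not given.

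Of the sensing genes, SCAP and INSIG2 were higher in DOHH2 in both comparisons. SCAP had 130.2, 160.3 and 170.0 CPM against 71.6, 77.9 and 81.5 CPM in DMSO, 1.99-fold higher (SE 0.13 on the log2 scale). INSIG2 had 22.5, 15.97 and 18.2 against 9.21, 7.996 and 7.92 CPM in DMSO (log2 difference 1.17, SE 0.19), and 1.55 (SE 0.20, adjusted p = 5.96e-07) with TK at 18 h. INSIG1, itself a known SREBP target, passed with TK at 18 h (269, 237 and 233 against 141, 129 and 127 CPM, log2 difference 0.90, SE 0.15) and not in DMSO (0.32, SE 0.15, adjusted p = 0.0657). SREBF2, the SREBP of sterol synthesis, was lower in DOHH2 in DMSO (198, 338 and 310 against 343, 416 and 424 CPM, log2 difference -0.48, adjusted p = 0.0209), and without the low DOHH2 replicate 1 the difference was -0.28 (adjusted p = 0.143). It also did not pass without U2932 DMSO 8 h replicate 2 or 3 (adjusted p = 0.0508 and 0.0676). SREBF1, the SREBP of fatty acid synthesis, passed in neither comparison, with 52.4 to 59.3 CPM in DOHH2 and 47.6 to 53.4 CPM in U2932 in DMSO.

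Both transport genes were called, and STARD4 changed sides. NPC1, which moves cholesterol out of lysosomes, had 50.04, 56.5 and 54.6 CPM in DOHH2 and 26.6, 24.5 and 25.1 CPM in U2932 in DMSO at 8 h (log2 difference 1.08, SE 0.14), and 90.9, 62.0 and 67.5 against 24.1, 20.1 and 22.6 CPM with TK at 18 h (1.72, SE 0.14). STARD4, a soluble sterol carrier, had 24.8, 23.6 and 23.3 CPM in DOHH2 against 49.8, 46.6 and 36.2 CPM in DMSO at 8 h (-0.89, SE 0.23, adjusted p = 0.00193). With TK at 18 h it had 20.05, 41.03 and 33.5 CPM in DOHH2 against 24.1, 21.3 and 19.8 CPM in U2932 (0.54, SE 0.23, adjusted p = 0.0423), with overlapping groups. That call was lost in 9 of 13 alternative settings, DESeq2 included (adjusted p = 0.0535), and without DOHH2 TK 18 h replicate 2 the difference was 0.30 (adjusted p = 0.272). The change of side was not itself tested, and treatment and time cannot be told apart in it.

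In fatty acid synthesis 2 of 7 genes were higher and 2 lower in DOHH2 in DMSO at 8 h, and 5 were higher and none lower with TK at 18 h. FADS2, a desaturase of polyunsaturated fatty acids, had 287, 315 and 283 CPM in DOHH2 and 97.2, 91.6 and 96.9 CPM in U2932 in DMSO, 3.09-fold higher (adjusted p = 4.72e-08), and 2.75-fold higher with TK at 18 h. FASN had 589, 932 and 946 CPM against 441, 443 and 480 CPM in DMSO (log2 difference 0.86, SE 0.18) and 1025, 651 and 607 against 387, 349 and 387 CPM with TK (1.02, SE 0.18). FADS1, a neighbouring desaturase gene on chromosome 11, was lower in DOHH2 in DMSO (89.3, 90.5 and 82.1 against 115, 119 and 109 CPM, -0.39, SE 0.12, adjusted p = 0.00779) and higher with TK at 18 h (143, 106 and 103 against 92.1, 92.7 and 98.6 CPM, 0.31, SE 0.12, adjusted p = 0.0271). The latter call was lost in 8 of 13 alternative settings, DESeq2 included (adjusted p = 0.0505). Without DOHH2 TK 18 h replicate 1 the difference was 0.15 (adjusted p = 0.207). It did not pass without U2932 TK 18 h replicate 1 or 2 either (adjusted p = 0.0757 and 0.0822). ACACA, the rate-limiting carboxylase, and SCD passed with TK only, at 1.05 (SE 0.21) and 0.77 (SE 0.14), whereas ELOVL6, an elongase, passed in DMSO only, at -0.49 (SE 0.16). Whether these 3 differ between the comparisons was not tested. ACLY passed in neither, with 329 to 363 CPM in DOHH2 and 354 to 378 CPM in U2932 in DMSO.

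Of the 3 liver X receptor targets, MYLIP was higher in DOHH2 in both comparisons. ABCG1 and ABCA1 were too, but they were tested only because of their DOHH2 levels, so their values are a description. Without these 2, the genes called were 8 higher and 17 lower of 34 in DMSO and 13 and 13 of 34 with TK. ABCG1, a cholesterol exporter, had 5.31, 6.86 and 3.32 CPM in DOHH2 and 0.0287, 0 and 0.0273 CPM in U2932 in DMSO. That is 594 counts against 2, a ratio per gene count of 277.4 with a 95% exact binomial interval of 76.5 to 2296 that covers counting error only. With TK at 18 h it had 552 counts against 1, a ratio of 515 (92.0 to 20370). ABCA1, the other exporter, had 1.33, 2.16 and 0.945 CPM against 0.201, 0.0296 and 0.0820 CPM in DMSO, 173 counts against 11 (ratio 14.7, 8.01 to 30.0), and 354 counts against 13 with TK at 18 h (ratio 25.4, 14.7 to 48.2). MYLIP, a ubiquitin ligase that removes lipoprotein receptors, had 40.8, 34.2 and 28.4 CPM against 13.4, 12.02 and 10.7 CPM in DMSO (log2 difference 1.51, SE 0.14, adjusted p = 4.19e-09) and 1.52 (SE 0.14) with TK.

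TK against DMSO changed no member past the threshold in either line at either time in the quasi-likelihood test over all libraries. Fits of fewer libraries, some with calls in U2932 at 18 h, are given at the end. In DOHH2 at 8 h 0 of 36 were called, where 0% of all genes were. In DOHH2 at 18 h 0 were called where 0.0728% of all genes were (0.0668% higher and 0.00607% lower), in U2932 at 8 h 0 where 0% were, and in U2932 at 18 h 0 where 0.0182% were (0.00607% higher and 0.0121% lower). At an unadjusted p under 0.05 the counts were 1, 0, 0 and 10 of 36, where 3.02%, 8.56%, 1.67% and 7.45% of all genes were. DESeq2 called 0, 0, 0 and 2, the last where it called 60 genes in all. The median changes were 0.09, 0.07, 0.05 and 0.21 on the log2 scale, against medians of all genes between 0.00 and 0.02.

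**Figure D2:**
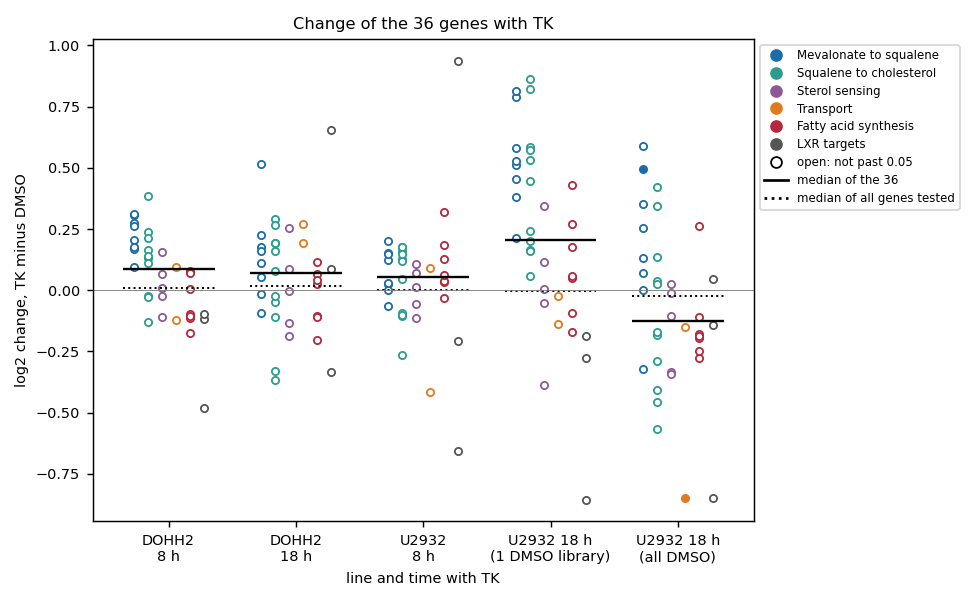
Log2 change of each of the 36 genes with TK relative to DMSO (vertical axis) in DOHH2 and U2932 at 8 h and 18 h and, at the right, U2932 TK 18 h relative to all 4 U2932 DMSO libraries. Points are genes coloured by role, solid bars the median of the 36 and dotted bars that of all genes tested. In U2932 at 18 h the median is 0.21 against the single DMSO library and -0.13 against all DMSO libraries.

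In DOHH2 at 8 h the members with the smallest p were IDI1, MVK and PMVK. IDI1 had 63.4, 78.1 and 88.2 CPM with TK and 52.7, 62.5 and 69.8 CPM with DMSO, a log2 change of 0.31 (SE 0.14, adjusted p = 1) with overlapping groups. MVK changed by 0.26 (SE 0.16) and PMVK by 0.31 (SE 0.19). The PMVK value rested on TK replicate 1, at 103 CPM against 61.6 and 49.4 CPM, and was -0.05 without it. With all libraries, the 8 genes from acetyl-CoA to squalene, PMVK included, had positive values with a median of 0.23, where 52.4% of all genes were positive. The 8 were measured in the same libraries, so their signs are not separate observations. No member's TK libraries lay wholly above or below its DMSO libraries, where 2.71% of all genes lay wholly above and 2.85% wholly below. Both libraries numbered 1 were low in HMGCS1, at 50.7 CPM with DMSO and 52.96 CPM with TK, against 90.2 to 127 CPM in the other 4 at 8 h.

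In DOHH2 at 18 h HMGCS1 had 102, 115 and 115 CPM with TK against 74.5 and 79.8 CPM with DMSO, a log2 change of 0.52 (SE 0.26, adjusted p = 0.599). EBP, a sterol isomerase, had 60.9, 56.9 and 58.3 against 79.5 and 72.1 CPM (-0.37, SE 0.20, adjusted p = 0.646), and ABCA1 had 2.55, 3.47 and 2.66 against 1.74 and 1.94 CPM (0.66, SE 0.37, adjusted p = 0.652). The groups of these 3 genes did not overlap. In all, 5 members lay wholly higher and 3 wholly lower, where 11.9% and 13.2% of all genes did. MSMO1, FASN and SREBF2 stood apart in TK replicate 1, at 19.2, 1025 and 365 CPM against 50.7 to 53.2, 607 to 651 and 268 to 272 CPM in the other TK libraries. That library's high share of reads without a unique alignment moved with these values, and its part in them was not tested.

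**Figure D3:**
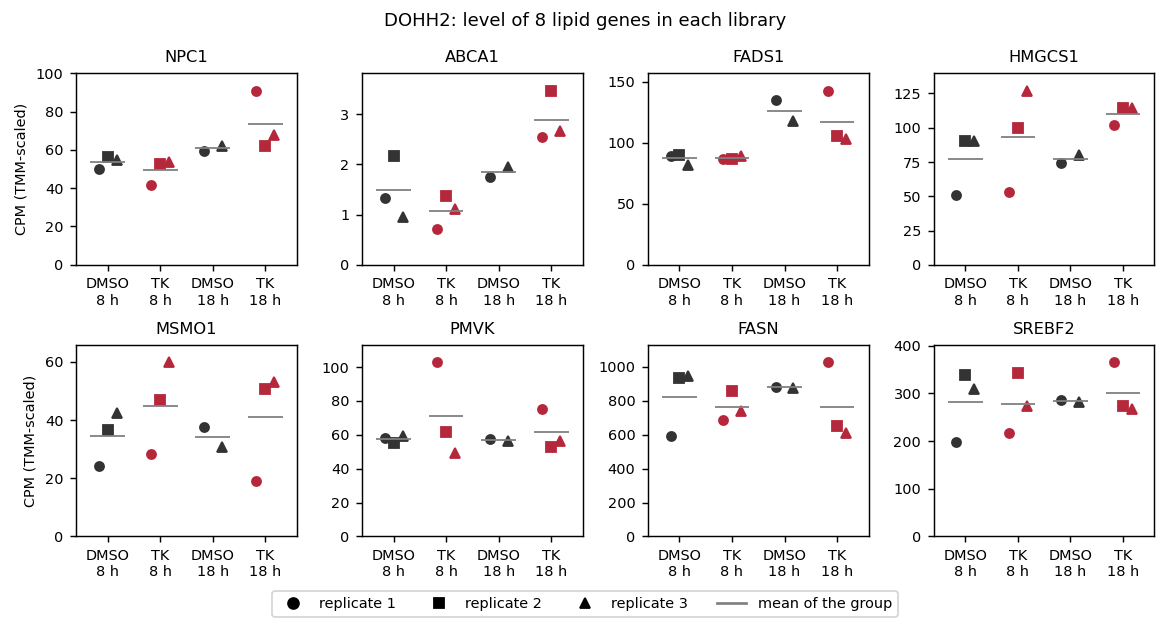
Level in CPM (vertical axis, from 0) of 8 genes in each DOHH2 library by treatment and time, with symbols for replicates and grey lines for group means. NPC1 and ABCA1 are higher in all TK 18 h libraries than in all TK 8 h libraries, and replicate 1 stands apart for PMVK at 8 h and for MSMO1, FASN and SREBF2 with TK at 18 h.

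In DOHH2 the genes that passed did so between times. With TK, 2 of 36 genes rose from 8 h to 18 h and none fell, where 1.57% of all genes were called (0.68% higher and 0.886% lower). The groups did not overlap for 3 genes higher and 0 lower, where 8.54% and 7.84% of all genes did not. NPC1 rose from 41.5, 52.6 and 53.9 CPM to 90.9, 62.0 and 67.5 CPM (log2 change 0.57, SE 0.14, adjusted p = 0.0394), and ABCA1 from 0.716, 1.37 and 1.11 CPM to 2.55, 3.47 and 2.66 CPM (1.44, SE 0.34, adjusted p = 0.0387). FADS1 followed with 86.8, 86.7 and 89.5 against 143, 106 and 103 CPM (0.42, SE 0.12, adjusted p = 0.0795). Without both DOHH2 TK libraries numbered 1, NPC1 changed by 0.28 (adjusted p = 0.26) and ABCA1 by 1.31 (adjusted p = 0.126). Neither passed when replicate 1 or 2 of TK 8 h or replicate 3 of TK 18 h was left out, NPC1 did not pass without TK 18 h replicate 1 (0.39, adjusted p = 0.0892), and ABCA1 did not without TK 18 h replicate 2 (1.28, adjusted p = 0.11). With the replicate block NPC1 did not pass (0.57, adjusted p = 0.0604) and ABCA1 did (1.45, adjusted p = 0.0113). In DMSO 0 of 36 were called where 0.631% of all genes were, with 2 at an unadjusted p under 0.05, where 10.8% of all genes were. In DMSO NPC1 had 50.04 to 56.5 CPM at 8 h and 59.7 and 62.1 CPM at 18 h (0.18, SE 0.15), and ABCA1 had 0.945 to 2.16 CPM and then 1.74 and 1.94 CPM (0.30, SE 0.37). The groups did not overlap for 8 genes higher and 2 lower, where 18.7% and 15.8% of all genes did not. LSS changed by -0.52 (SE 0.21, adjusted p = 0.35) and CYP51A1 by 0.45 (SE 0.25, adjusted p = 0.545). FADS1 had 135 and 118 CPM at 18 h in DMSO, above its 82.1 to 90.5 CPM at 8 h (0.53, SE 0.13, adjusted p = 0.0838), and passed by DESeq2 (adjusted p = 0.0178). The difference of the TK effect between the times was 1.14 (SE 0.51) for ABCA1, 0.39 (SE 0.21) for NPC1 and -0.48 (SE 0.27) for EBP. In that test 0 of 36 passed, where 0.0121% of all genes did, and 0 passed by DESeq2. At an unadjusted p under 0.05 there was 1 of 36, where 4.32% of all genes were.

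In U2932 at 8 h the smallest p were those of FADS2 (125 and 112 CPM with TK against 97.2, 91.6 and 96.9 CPM, log2 change 0.32, SE 0.19), STARD4 (24.2 and 41.9 against 49.8, 46.6 and 36.2 CPM, -0.42, SE 0.26) and MYLIP (10.4 and 10.5 against 13.4, 12.02 and 10.7 CPM, -0.21, SE 0.15), each with an adjusted p of 1. Of the 36 genes, 4 lay wholly higher and 1 wholly lower, where 6.73% and 7.24% of all genes did. Against all 4 DMSO libraries of both times, 0 of 36 were called where 0% of all genes were, and 0 passed by DESeq2. At an unadjusted p under 0.05 there were 0, where 1.46% of all genes were. There 2 genes lay wholly higher and 1 wholly lower, where 3.28% and 3.81% of all genes did.

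In U2932 with TK at 18 h, the mean of 10 of the 19 sterol synthesis genes (HMGCS1, IDI1, FDFT1, SQLE, LSS, CYP51A1, LBR, MSMO1, SC5D and DHCR7) lay above the DMSO 18 h library and below the mean in DMSO at 8 h, and the other 9 had the same direction against both. The share over all genes was not computed for this count, so it is not shown to be particular to sterol genes. The difference between the DMSO 18 h and DMSO 8 h controls is given first. In that library HMGCS1 stood at 49.7 CPM against 116, 136 and 127 CPM in the DMSO 8 h libraries, MSMO1 at 35.9 against 99.4, 103 and 109 CPM, IDI1 at 151 against 280.1, 292 and 289 CPM, SC5D at 92.04 against 198, 213 and 173 CPM, and SCD at 267 against 460.4, 487 and 432 CPM. With 1 library there is no replicate at 18 h, and its difference from the 8 h libraries is given as a description that was not tested. Of the 36 genes, 24 were lower in it than in all 3 DMSO 8 h libraries and 6 were higher, where 30.9% of all genes were lower and 33% higher. The 24 included 9 of 11 genes from squalene to cholesterol, 5 of 8 from acetyl-CoA to squalene and 5 of 7 of fatty acid synthesis. The 6 higher were PMVK, FDPS, EBP, SREBF1, SCAP and MYLIP. This library held 49507627 counts in genes and 22.8% without a unique alignment, within the range of the others. It had the most genes with a count, 24992, against 21898 to 23686 in the other U2932 libraries and 19717 to 23002 in DOHH2, and the part of this in the lower values was not tested. Whether it differs through time in DMSO or as a single library cannot be told apart.

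**Figure D4:**
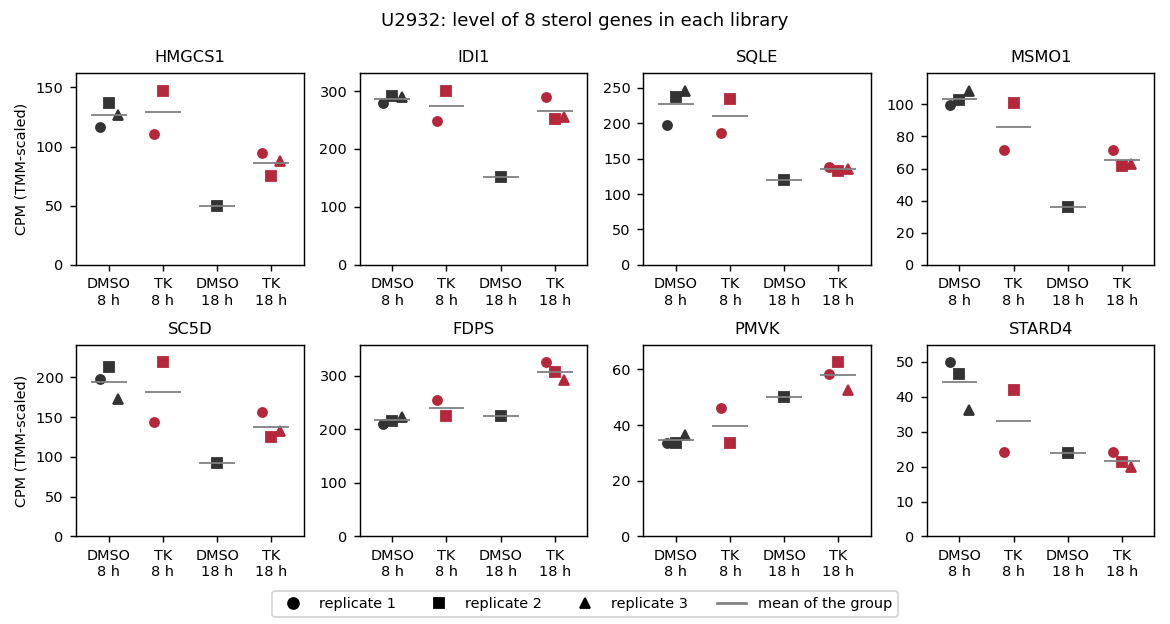
Level in CPM (vertical axis, from 0) of 8 sterol genes in each U2932 library by treatment and time, with symbols for replicates and grey lines for group means. For HMGCS1, MSMO1 and SC5D the TK 18 h libraries lie between the single DMSO 18 h library and the DMSO 8 h libraries, whereas FDPS and PMVK are highest in the TK 18 h libraries.

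For 8 of the 36 genes (HMGCS1, SQLE, CYP51A1, MSMO1, SC5D, INSIG1, FASN and SCD) all TK 18 h libraries lay between the DMSO 18 h library and the DMSO 8 h libraries. For 7 genes (ACAT2, PMVK, MVD, FDPS, HSD17B7, EBP and FADS2) they lay above both, for FADS1 below both, and the other 20 fell into none of these patterns. The shares of all genes with these patterns were not computed, so none is shown to be particular to the 36. HMGCS1 had 94.7, 74.7 and 88.0 CPM with TK at 18 h, above 49.7 CPM in DMSO at 18 h and below 116 to 136 CPM in DMSO at 8 h. MSMO1 had 71.8, 61.3 and 62.8 CPM, SC5D 157, 125 and 133 CPM, and SCD 386, 334 and 360.2 CPM, each again between the controls. Against the DMSO 18 h library alone, 22 of 36 genes lay wholly higher with TK and 3 wholly lower, where 31.2% and 32.7% of all genes did, including 8 of 8 genes from acetyl-CoA to squalene and 10 of 11 from squalene to cholesterol. HSD17B7, a sterol ketoreductase, had 37.6, 32.2 and 35.2 against 19.8 CPM (log2 change 0.82, SE 0.20, adjusted p = 0.246), IDI1 had 289, 252 and 256 against 151 CPM (0.82, SE 0.20, adjusted p = 0.318) and FDFT1 had 375, 367 and 384 against 261 CPM (0.53, SE 0.18, adjusted p = 0.52). The test takes the spread of that group from the other groups, and none of the 36 passed. With the DMSO 8 h libraries as control, IDI1 changed by -0.11 and FDFT1 by -0.14, and the calls were 2 higher and 4 lower of 36, where 2976 of 16478 genes were called, a like share.

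Against all 4 DMSO libraries of both times, FDPS was higher and STARD4 lower with TK at 18 h. That is 2 of 36 genes, where 10% of all genes were called (4.99% higher and 5.04% lower). Most of these control libraries are of 8 h, so TK and time cannot be told apart in this comparison. FDPS had 325, 307 and 291 CPM with TK at 18 h and 210.2, 216, 223 and 224 CPM in the 4 DMSO libraries, a log2 change of 0.49 (SE 0.11, adjusted p = 0.0152), with no overlap. STARD4 had 24.1, 21.3 and 19.8 CPM against 49.8, 46.6 and 36.2 CPM in DMSO at 8 h and 23.9 CPM in DMSO at 18 h (-0.85, SE 0.25, adjusted p = 0.0362), so the groups overlapped through the DMSO 18 h library. PMVK had 58.4, 62.5 and 52.6 CPM against 33.6, 33.7, 36.5 and 49.9 CPM (0.59, SE 0.19, adjusted p = 0.0575). SQLE had 138, 132 and 135 CPM against 197, 238, 246 and 121 CPM (-0.57, SE 0.19, adjusted p = 0.0586). Without the DMSO 18 h library 6 genes passed, FDPS and PMVK higher and SQLE, CYP51A1, INSIG1 and STARD4 lower, in a fit that called 2973 genes in all, so the 6 are near the background. The STARD4 call was lost in 7 of 14 alternative settings and the FDPS call in 3 of 14. No gene of the 36 passed when replicate 2 of DMSO 8 h was left out (adjusted p = 0.058 for FDPS), nor when replicate 1 or 2 of TK 18 h was (0.0732 and 0.0571). STARD4 did not pass either without DMSO 8 h replicate 1 or 3 or TK 18 h replicate 3, or with the replicate block (adjusted p = 0.0519). The groups did not overlap for 7 genes higher and 1 lower, where 15.4% and 13.6% of all genes did not.

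Relative to TK at 8 h, U2932 with TK at 18 h had 16 of 36 genes wholly lower and 4 wholly higher, where 21.7% and 22.5% of all genes were. The lower ones included 6 of 7 genes of fatty acid synthesis. None passed in the quasi-likelihood test over all libraries, where 0.218% of all genes did (0.0607% higher and 0.158% lower), and 11 had an unadjusted p under 0.05, as did 18.7% of all genes. SQLE had 138, 132 and 135 CPM at 18 h against 187 and 235 CPM at 8 h (log2 change -0.64, SE 0.17, adjusted p = 0.0812), CYP51A1 changed by -0.85 (SE 0.26, adjusted p = 0.107) and INSIG1 had 141, 129 and 127 against 155 and 208 CPM (-0.46, SE 0.17, adjusted p = 0.153). With the U2932 libraries alone 9 genes passed, PMVK and FDPS higher and HMGCS1, SQLE, CYP51A1, SREBF2, INSIG1, FASN and SCD lower, among 1470 genes called in all. That fit filtered the genes anew and its number tested was not recorded. The 9 are therefore not shown to be particular to the 36. DESeq2 called SQLE and CYP51A1 among 860 of the 16478 genes.

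The TK effect was not shown to differ between the lines. At 8 h 0 of 36 genes passed the test of the difference, where 0% of all genes passed, and 0 passed by DESeq2. At an unadjusted p under 0.05 there were 0, where 1.92% of all genes were. At 18 h 0 passed where 0.0243% did (0.0182% higher and 0.00607% lower), and 0 passed by DESeq2. At an unadjusted p under 0.05 there were 4 of 36, where 6.17% of all genes were. The values with the smallest p at 18 h were -0.63 (SE 0.24, adjusted p = 0.739) for HSD17B7, -0.55 (SE 0.22) for FDPS and -0.54 (SE 0.23) for FDFT1, in DOHH2 minus U2932. At 8 h they were 0.38 (SE 0.21) for IDI1, 0.65 (SE 0.44) for MSMO1 and 0.51 (SE 0.34) for STARD4. The 18 h values rest on the single U2932 DMSO library.

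Other genes of the same pathways were also counted. Of 25 other sterol genes, 10 were higher and 8 lower in DOHH2 in DMSO at 8 h. Of 22 other fatty acid genes tested (HACD1 and ACSL6 were too low to test), 7 were higher and 11 lower. Of 8 liver X receptor genes, 3 were higher and 2 lower. Of all genes, 33% were higher and 34.9% lower. With TK at 18 h the counts were 9 and 10, 6 and 11, and 4 and 2, where 34.2% of all genes were higher and 34.9% lower. The genes named next are from the fatty acid list and were all lower in DOHH2, while 7 of its 22 were higher. ACACB, the carboxylase of the mitochondrial surface, averaged 0.670 CPM in DOHH2 and 35.9 CPM in U2932 in DMSO at 8 h. ME1, the cytosolic malic enzyme that supplies NADPH, had 0 counts in the 3 DOHH2 libraries and averaged 41.0 CPM in those of U2932. MID1IP1, which promotes carboxylase assembly, averaged 0.0313 and 62.4 CPM. In these DOHH2 libraries both genes lay below the filter of 0.288 CPM, which they passed through other libraries. Their values are therefore a description, and the counts of their list take no account of this. With TK against DMSO in each line and time none of these 55 genes passed. Against all U2932 DMSO libraries, with TK at 18 h, 4 of the 55 passed, where 10% of all genes did. NPC2 (0.57, SE 0.15), a partner of NPC1, ELOVL1 (0.40, SE 0.11), an elongase, and NR1H3 (0.75, SE 0.22), a liver X receptor, were higher. RNF139 (-0.84, SE 0.23), a sterol-sensing ubiquitin ligase, was lower. Here too TK and time cannot be told apart.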

How the data were processed

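RNA was sequenced from 20 libraries. The submitters' processing notes name STAR, HTSeq, edgeR and the build GRCh38.p10, with no role, order or version. Neither the strand setting nor the annotation is stated in what was used here. The deposited values are raw whole-number counts for 58288 genes and 5 summary rows, which were left out. The members and lists were chosen with earlier results of these data known.

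One model covered the 20 libraries, in edgeR 4.0.16 under R 4.3.3 (TMM scaling, robust quasi-likelihood F test), with 1 coefficient for each of 8 groups. For the comparisons with all U2932 DMSO libraries those of both times were merged. A gene had to reach 0.288 CPM, which is 10 counts in the median library, in 3 libraries or more. Adjusted p-values are Benjamini-Hochberg over the 16478 genes kept, threshold 0.05. RPKM used exon lengths of GENCODE v29, where all 36 genes had an entry, 32 with the same versioned identifier. The members with single values are those past the threshold (where over 12 passed, the 4 largest rises and falls by rule, the others chosen after their values were seen), or else the 3 with the smallest p. The fits were also run on simulated data drawn from the model itself. That cannot show how they fare with libraries that stand apart. One marker gene is not reported here. The alternatives tried were no filter, a filter of 50 counts, scaling by RLE, 1 line only, the compared groups only, a replicate block, other U2932 controls, DESeq2 1.42.0 and each library left out. Leaving out both DOHH2 TK libraries numbered 1 and using only the DMSO 8 h libraries as control were chosen after seeing the data.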

Additional observations from a re-analysis of the deposited data

Results flagged for a closer look

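In the 4 U2932 DMSO libraries, 2 of the 36 genes had a value apart from the rest, by Dixon's ratio of the gap to the range at its 95% critical value. IDI1 had 150.8 CPM in U2932 DMSO 18 h replicate 2 and 280.1 to 292 CPM in the 3 libraries of 8 h (gap over range 0.917). MSMO1 had 35.9 CPM in the same library and 99.4 to 109 CPM in the others (0.875). Chance flags about 1 in 20 groups, and 36 genes were examined. The library is the only DMSO library of U2932 at 18 h, so its time and the library cannot be told apart.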

How the results depend on the processing

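Counts of called genes in the line comparisons were 25 to 30 in DMSO at 8 h (25 to 29 with 1 library left out) and 25 to 28 with TK at 18 h (25 to 27). For TK in U2932 at 18 h, 6 genes passed with the compared groups only (167 of all genes), 2 with DESeq2 (60) and 6 with the DMSO 8 h libraries as control (2976), under which FDFT1 was -0.14 and IDI1 -0.11. For DOHH2 in DMSO over time 1 passed with the compared groups only (226 of all genes) and 1 with DESeq2 (284). For DOHH2 with TK over time, 2 in the model of all libraries, 0 passed with 1 line only (33 of all genes), 0 with the compared groups only (2) and 0 without both TK libraries numbered 1 (114), and 0 to 3 with 1 library left out. For U2932 with TK over time, 0 in that model, 5 passed without the filter (739 of all genes), 9 with 1 line only (1470), 7 with the compared groups only (1374) and 2 with DESeq2 (860). For U2932 TK 18 h against all DMSO, 2 in that model, 4 passed without the filter (2061 of all genes), 5 with the compared groups only (2728), 5 with DESeq2 (2527) and 0 to 6 with 1 library left out. The number of genes tested was not recorded for fits with fewer libraries or another filter, so no shares are given here. PMVK in DOHH2 at 8 h was -0.05 without TK replicate 1, its range with 1 library left out being -0.05 to 0.51, and -0.05 without both. The causes were not tested. Leaving out a library removes its values and lowers the number of samples together, and these cannot be told apart.

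With the replicate block, DOHH2 with TK over time had 1 call (ABCA1, without NPC1) and U2932 TK 18 h against all DMSO 1 (FDPS, without STARD4), and no other count moved by over 1.5 times. Correlations of same-numbered deviations in DOHH2 at 8 h were 0.309, 0.541 and -0.052, and those of different numbers ran from -0.472 to 0.0751. Whether the numbers pair the libraries is not settled by these values, and the main model takes no account of pairing. Depth limits ABCA1 and ABCG1 in U2932, with 0 to a few counts per library.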
